A study of Mus musculus with 5 samples.

Results

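The genes described are those whose messenger RNA lay on the same side of the untreated control in every particle-exposed library of BV-2 cells, an immortalised mouse microglial line. They were chosen from 8341 genes with a mean of at least 10 CPM (counts per 1e6, normalised with TMM factors) over 5 libraries. All 4 exposed libraries were higher than the control for 1667 genes and lower for 1817 genes, 3484 in all, and the other genes had exposed libraries on both sides. A stricter subset of 144 genes is described in most detail. Its members lay at least 1.25-fold from the control in each exposed library, with each 95% counting interval of the fold excluding 1. It held 94 higher genes and 50 lower genes.

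The control is labelled a normal control, without particles or drug. The sources used here do not say whether it received a vehicle. The first exposed group received urban particulate matter (UPM) at 50 µg/mL for 23 h. In the other 3, trazodone (TZ), an antidepressant, preceded that exposure by 1 h, at 1.25, 2.5 or 5 µg/mL. These libraries are called UPM, TZ 1.25, TZ 2.5 and TZ 5. Each group is 1 library of the same cell line, so the spread between cultures of a group was not measured. The 1 control library enters every fold, and a deviation of that library would enter all 4 folds alike. No library with TZ alone is analysed here, so particles and drug cannot be told apart in 3 of the 4 folds. An exact permutation test of 1 library against 4 cannot give a p below 0.2, and membership is therefore a description and not a test.

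The libraries held 6829720 to 7696168 counts, and a count of 0 allowed up to 0.390 to 0.439 CPM. Of 14 markers of microglia and macrophages 12 were measured, with a summed level of 4636 to 5010 CPM. The homeostatic microglial genes P2ry12, with 5 to 11 counts, and Tmem119, with 23 to 57 counts, were low throughout. Mog of oligodendrocytes, Aqp4 of astrocytes, Stmn2 of neurons, and Cd3e and Cd8a of T cells had 0 counts in all 5 libraries. Mitochondrial ribosomal RNA took 7.94% of counts in the control, against 8.80% (UPM), 8.64% (TZ 1.25), 7.0% (TZ 2.5) and 7.06% (TZ 5), so the control lay inside the range of the exposed libraries.

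Several programmes are relevant to cells that take up particles. NRF2 is a transcription factor that is stabilised by electrophiles and oxidants and acts through antioxidant response elements, and its targets make and use glutathione, the cell's main thiol antioxidant. p53 drives genes that arrest the cell cycle or promote apoptosis after DNA damage. Type I interferon acts through interferon-stimulated response elements on antiviral genes, and microglia are a source and a target of interferon in the brain.

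Promoters of 5 members that each hold a match to a core given below are shown. Gsta3, Mgst1 and Gclm come from the glutathione genes that were higher. Isg15 and Bst2 come from the interferon genes that were lower. The 250 bases before the start of each gene are printed 5′ to 3′ from RefSeq, build GRCm38.p6, which is older than the build of the deposited files. Capitals mark matches to TGACNNNGC, a core of the antioxidant response element, or to GAAANNGAA, a core of the interferon-stimulated response element, on either strand.
Gsta3 (chr1:21240335-21240584, plus strand): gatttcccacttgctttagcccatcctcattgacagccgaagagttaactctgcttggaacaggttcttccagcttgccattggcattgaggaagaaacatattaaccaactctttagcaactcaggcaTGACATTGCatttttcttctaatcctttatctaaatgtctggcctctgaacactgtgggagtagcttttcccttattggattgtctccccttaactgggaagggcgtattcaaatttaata
Mgst1 (chr6:138140277-138140526, plus strand): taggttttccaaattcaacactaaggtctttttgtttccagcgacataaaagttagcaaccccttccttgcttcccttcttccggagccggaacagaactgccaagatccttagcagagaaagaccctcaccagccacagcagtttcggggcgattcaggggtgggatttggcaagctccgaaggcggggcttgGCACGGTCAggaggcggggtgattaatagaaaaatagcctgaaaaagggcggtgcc
Gclm (chr3:122245307-122245556, plus strand): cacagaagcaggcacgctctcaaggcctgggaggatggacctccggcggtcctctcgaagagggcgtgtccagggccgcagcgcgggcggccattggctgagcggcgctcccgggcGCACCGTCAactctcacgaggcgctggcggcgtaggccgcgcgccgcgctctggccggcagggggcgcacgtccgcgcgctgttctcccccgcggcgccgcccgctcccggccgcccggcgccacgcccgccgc
Isg15 (chr4:156200819-156201068, minus strand): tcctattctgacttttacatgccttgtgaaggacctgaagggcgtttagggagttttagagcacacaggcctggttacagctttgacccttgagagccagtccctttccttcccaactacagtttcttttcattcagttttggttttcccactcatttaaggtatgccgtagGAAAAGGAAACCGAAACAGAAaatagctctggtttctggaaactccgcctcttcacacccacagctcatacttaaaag
Bst2 (chr8:71537473-71537722, minus strand): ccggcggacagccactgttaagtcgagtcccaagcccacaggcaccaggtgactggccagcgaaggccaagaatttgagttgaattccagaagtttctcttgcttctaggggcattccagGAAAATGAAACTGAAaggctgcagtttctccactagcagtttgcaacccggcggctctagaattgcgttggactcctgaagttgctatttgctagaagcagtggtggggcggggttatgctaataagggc

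The matches began at position -121 from the start in Gsta3, -56 in Mgst1, -134 in Gclm, -78 in Isg15 and -130 in Bst2. Isg15 held 3 overlapping matches and Bst2 held 2. The counts that follow were made over windows of 300 bases, 250 before and 50 after the start, for genes with a promoter in the RefSeq table. TGACNNNGC or its reverse GCNNNGTCA was present in 1142 of 6665 measured genes (17.1%). It was present in 10 of the 23 genes of the NRF2 and glutathione list that lay above the control in all 4 libraries (43.5%), and in 12 of the 32 measured genes of that list (37.5%). Among the strict members it was found in 12 of 75 higher genes (16.0%) and 3 of 36 lower genes (8.33%). Of the strict members of the NRF2 and glutathione list, only Gsta3, Mgst1 and Gclm were among these 12. The p53 target Cdkn1a was among the 3 lower genes. GAAANNGAA or its reverse TTCNNTTTC was present in 581 of 6665 measured genes (8.72%), in 7 of the 11 interferon genes that lay below the control in all 4 (63.6%) and in 16 of the 29 measured interferon genes (55.2%). It was found in 7 of 75 higher members (9.33%) and 3 of 36 lower members (8.33%). Neither core contains the other, and a match describes letters only.

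Of the 8341 measured genes, 20.0% were higher than the control in all 4 exposed libraries and 21.8% were lower. A control exchangeable with the 4 exposed libraries would be lowest in a share of 0.2 of genes and highest in the same share. Both shares lie near that value, so the number of genes on one side is not itself evidence of a response. Most of these differences were small. The fold nearest 1 had a median of 1.07 among the higher genes and 0.945 among the lower genes, and counting error excluded a fold of 1 in all 4 libraries for 221 higher and 313 lower genes. The strict members made up 1.13% of measured genes on the higher side and 0.599% on the lower side. At 1.5-fold in all 4 libraries there were 20 higher genes (0.24%) and 1 lower gene, Zfp428 (0.012%). Only Gsta3 and Mgst2, both glutathione transferases, were at least 2-fold higher in each exposed library, and no gene was 2-fold lower in each. Both were under 10 CPM in the control, at 5.59 and 4.66, and passed the CPM minimum through the exposed libraries. That minimum is a mean over 4 exposed libraries and 1 control, so counts of higher and lower genes are not directly comparable. At a mean CPM of at least 30 there were 30 strict higher and 24 strict lower members. Beside the strict members, each exposed library alone held many more genes past 1.25-fold by the same rule: UPM had 608 higher and 628 lower, TZ 1.25 had 504 and 424, TZ 2.5 had 751 and 671, and TZ 5 had 1020 and 971. The 94 common higher genes were 15.5% of the higher genes of UPM, 18.7% of TZ 1.25, 12.5% of TZ 2.5 and 9.22% of TZ 5. The 50 common lower genes were 7.96%, 11.8%, 7.45% and 5.15% of the lower genes of those libraries.

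Just inside the 1.25-fold limit on the higher side were Bfar and Fkbp15, whose smallest fold was 1.25 in both. Iah1 and Vamp3 were just outside, at 1.247 and 1.249. On the lower side the fold nearest 1 was 0.798 for Ybx3 and 0.797 for Ap2a2, just inside, and 0.802 for Rnf126 and 0.801 for Pde2a, just outside. Folds thus ran on across the limit without a gap.

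**Figure D1:**
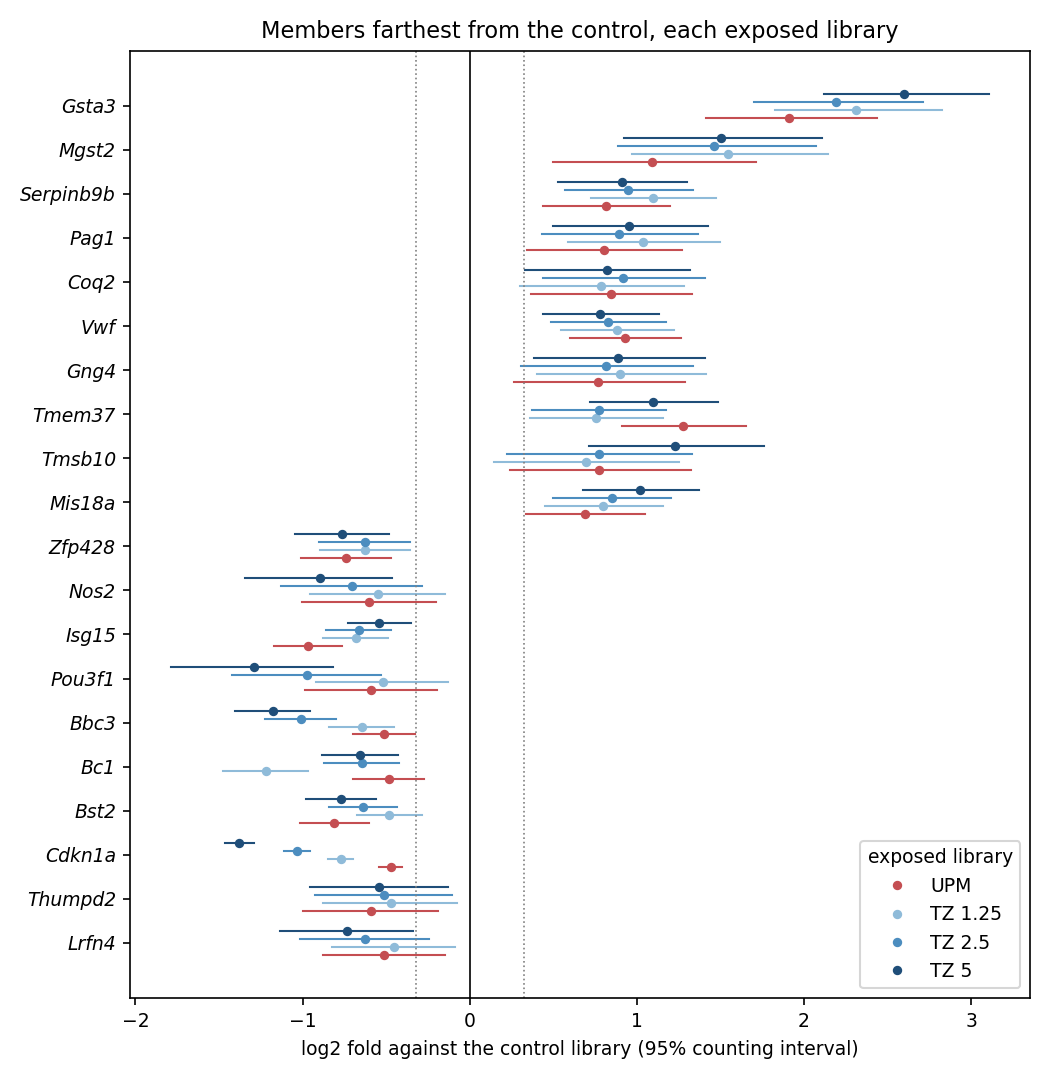
Log2 fold against the control library for the 10 higher and 10 lower members, predicted genes left out, whose nearest exposed library was farthest from the control. Points are the 4 exposed libraries, bars are 95% counting intervals, dotted lines mark 1.25-fold, and Gsta3 lies farthest of these 20 members, at 3.76-fold to 6.04-fold.

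The glutathione transferases Gsta3 and Mgst2 stood at the head of the higher members. Gsta3, an alpha-class transferase that couples glutathione to electrophiles, was at 5.59 CPM in the control, against 21.0 (UPM), 27.7 (TZ 1.25), 25.5 (TZ 2.5) and 33.8 (TZ 5). All 4 exposed libraries were clear of the control, with folds of 3.76 (95% counting interval 2.67 to 5.42), 4.96 (3.54 to 7.09), 4.57 (3.25 to 6.56) and 6.04 (4.34 to 8.61). These rest on 42 counts in the control and 161 to 233 in the exposed libraries.

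Mgst2, a microsomal transferase of the endoplasmic reticulum, was at 4.66 CPM in the control, against 9.93 (UPM), 13.6 (TZ 1.25), 12.8 (TZ 2.5) and 13.2 (TZ 5), or 2.13-fold to 2.92-fold higher. Its relative Mgst1, which also protects membranes from lipid peroxides, was at 14.8 CPM in the control, against 23.4 (UPM), 25.8 (TZ 1.25), 27.4 (TZ 2.5) and 29.6 (TZ 5). The microsomal pair was thus lowest in UPM among the exposed libraries, although the counting intervals of the 4 folds overlapped for both genes.

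The mu-class transferases Gstm1 and Gstm2 are close paralogs, and reads may be split between them since the way reads were counted is not stated in the sources used here. Gstm1 was at 30.1 CPM in the control, against 53.2 (UPM), 44.3 (TZ 1.25), 55.7 (TZ 2.5) and 58.9 (TZ 5). Gstm2 was at 15.6 CPM in the control, against 25.7 (UPM), 24.0 (TZ 1.25), 23.5 (TZ 2.5) and 22.6 (TZ 5). Both were apart from the control in each exposed library, at 1.47-fold to 1.96-fold for Gstm1 and 1.45-fold to 1.65-fold for Gstm2.

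Of the subunits of the first enzyme of glutathione synthesis, Gclm was a strict member and Gclc was not. Gclm, the modifier subunit of glutamate-cysteine ligase, was at 62.2 CPM in the control, against 92.4 (UPM), 96.5 (TZ 1.25), 102 (TZ 2.5) and 85.4 (TZ 5), which is 1.37-fold to 1.63-fold. Gclc, the catalytic subunit, was at 124 CPM in the control, against 143 (UPM), 134 (TZ 1.25), 124 (TZ 2.5) and 118 (TZ 5), so its exposed libraries fell on both sides of the control. Slc7a11, which imports cystine for glutathione synthesis, was at 11.4 CPM in the control, against 15 (UPM), 18.7 (TZ 1.25), 18.5 (TZ 2.5) and 22.2 (TZ 5). It was on one side, but the interval of its fold in UPM (0.984 to 1.76) included 1.

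Enzymes that clear peroxides and haem products were also among the strict members. Cat, the peroxisomal catalase that breaks down hydrogen peroxide, was at 51.4 CPM in the control, against 84.6 (UPM), 87.6 (TZ 1.25), 79.4 (TZ 2.5) and 97.2 (TZ 5). Blvrb, a biliverdin and flavin reductase, was at 84.4 CPM in the control, against 125 (UPM), 127 (TZ 1.25), 115 (TZ 2.5) and 123 (TZ 5). Esd, which hydrolyses S-formylglutathione, was at 184 CPM in the control, against 280 (UPM), 267 (TZ 1.25), 252 (TZ 2.5) and 266 (TZ 5). For each of these 3 genes the exposed libraries lay near each other and apart from the control, between 1.37-fold and 1.89-fold.

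Widely used NRF2 markers lay nearer the control. Hmox1, the inducible haem oxygenase, was at 49.3 CPM in the control, against 57.8 (UPM), 65.4 (TZ 1.25), 63.5 (TZ 2.5) and 60.5 (TZ 5), or 1.17-fold to 1.33-fold. Txnrd1, thioredoxin reductase, was at 218 CPM in the control, against 253 (UPM), 260 (TZ 1.25), 241 (TZ 2.5) and 229 (TZ 5). Srxn1, which repairs oxidised peroxiredoxins, was at 135 CPM in the control, against 139 (UPM), 154 (TZ 1.25), 166 (TZ 2.5) and 164 (TZ 5). All 3 were on the higher side and short of the 1.25-fold limit in at least 1 library. Nqo1, a quinone reductase, had 0 to 3 counts in every library and gives no fold.

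Of the 37 measured genes in the NRF2 and glutathione list, 25 were higher in all 4 exposed libraries (67.6%), 2 were lower and 9 were strict higher members. The median log2 fold over the list was 0.24, beside -0.01 over all measured genes. This list and the others were chosen with earlier results of these data known, so their shares are descriptions and not tests. The 9 strict members were Gsta3, Gstm1, Gstm2, Mgst1, Mgst2, Gclm, Blvrb, Cat and Esd. The 2 genes on the lower side were Blvra, the other biliverdin reductase, and Sod2, the mitochondrial superoxide dismutase. Nfe2l2, which encodes NRF2, and its inhibitor Keap1 had exposed libraries on both sides of the control, with Nfe2l2 at 307 to 350 CPM beside 348 in the control and Keap1 at 131 to 153 beside 151. The ferritin chains on this list were both on the higher side: Ftl1 was at 1875 CPM in the control and 2056 to 2812 in the exposed libraries, and Fth1 at 4933 and 5188 to 6085.

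**Figure D2:**
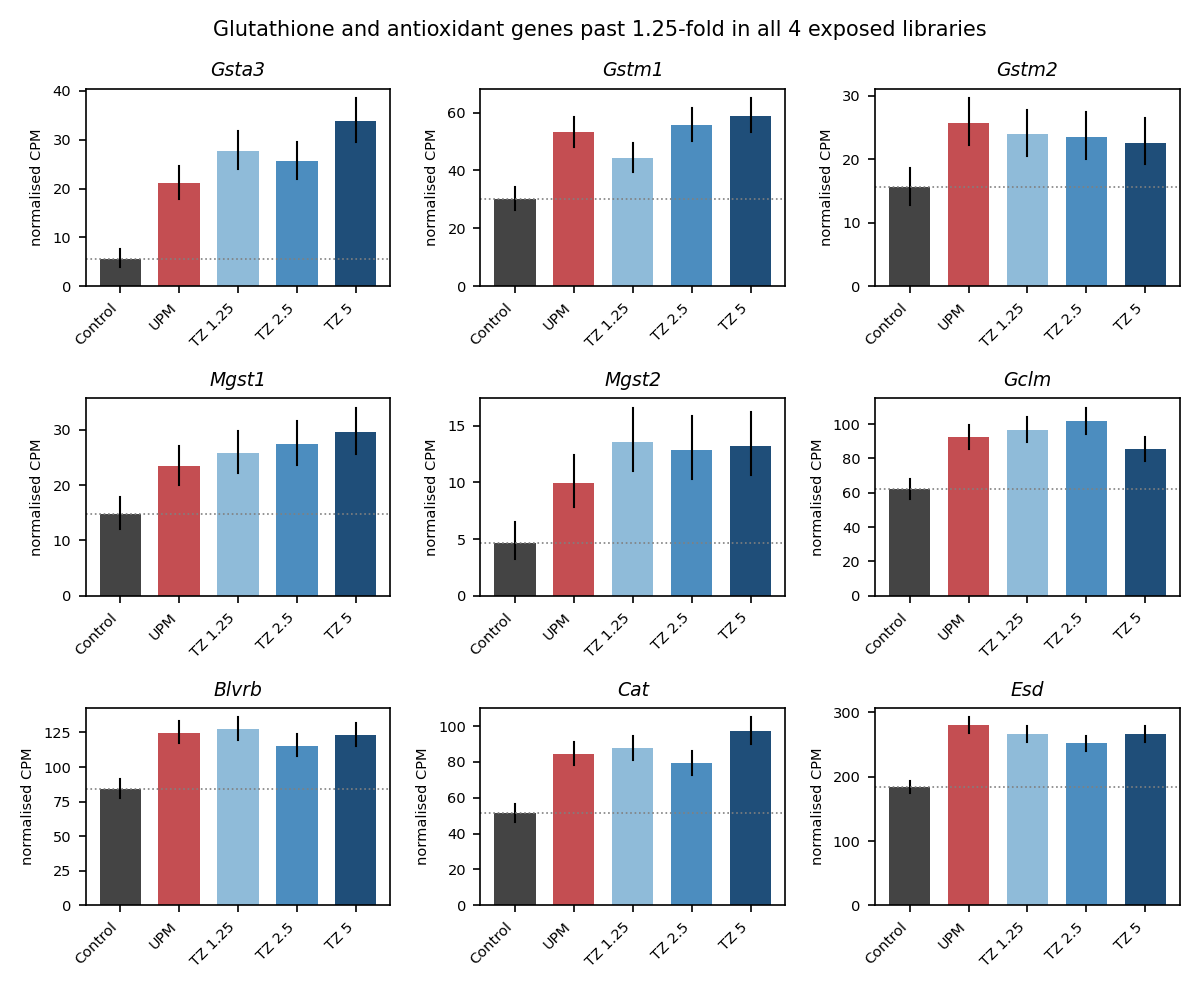
Normalised CPM in each of the 5 libraries for the 9 glutathione and antioxidant genes past 1.25-fold in all 4 exposed libraries. Bars are single libraries with 95% counting intervals, the dotted line is the control, and each exposed bar stands above it, from 1.37-fold (Blvrb in TZ 2.5) to 6.04-fold (Gsta3 in TZ 5).

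The metal handling list held 1 strict member. Mt1, a metallothionein that binds zinc and copper, was at 370 CPM in the control, against 513 (UPM), 521 (TZ 1.25), 584 (TZ 2.5) and 590 (TZ 5), or 1.39-fold to 1.60-fold. Its 2776 to 4066 counts keep the counting error of these folds small, with intervals from 1.32 to 1.68 over the 4 libraries. Those intervals do not cover spread between cultures, which was not measured. The paralog Mt2 had 0 to 7 counts. Of the 11 measured genes of the list 5 were higher in all 4 (45.5%) and 1, the metal importer Slc11a2, was lower (9.09%). Over all measured genes these shares were 20.0% and 21.8%.

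Beyond detoxification, the higher members included genes of membranes, vesicles and lipids. Cyb5a, the cytochrome b5 electron carrier, was at 97.4 CPM in the control, against 150 (UPM), 145 (TZ 1.25), 141 (TZ 2.5) and 129 (TZ 5). Esyt1, which tethers the endoplasmic reticulum to the plasma membrane, was at 63.9 CPM in the control, against 100 (UPM), 104 (TZ 1.25), 101 (TZ 2.5) and 92.7 (TZ 5). In both genes the 4 exposed libraries were 1.33-fold to 1.64-fold above the control and UPM was inside (Esyt1) or just above (Cyb5a) the range of the TZ libraries.

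Creg1, a secreted and lysosomal glycoprotein, was the most abundant of the strict higher members, at 705 CPM in the control, against 907 (UPM), 1030 (TZ 1.25), 1016 (TZ 2.5) and 1023 (TZ 5). Map1lc3b, whose product LC3B is attached to autophagosome membranes, was at 46.1 CPM in the control, against 68.6 (UPM), 61.1 (TZ 1.25), 72.6 (TZ 2.5) and 75.3 (TZ 5). Wdr45, which acts early in autophagosome formation, was at 6.52 CPM in the control, against 14.4 (UPM), 9.56 (TZ 1.25), 11 (TZ 2.5) and 13.3 (TZ 5). Map1lc3b and Wdr45 were the strict members of the autophagy list. Of its 22 measured genes 8 were higher in all 4 (36.4%) and 1 was lower (4.55%), beside 20.0% and 21.8% over all measured genes. The list's median log2 fold was 0.04.

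Neighbouring organelle lists leaned the same way with few or no strict members. Of 35 measured lysosome genes 12 were higher in all 4 (34.3%) and 2 lower (5.71%), beside 20.0% and 21.8% over all measured genes. The lysosome list had a median log2 fold of 0.07 and no strict member. The lysosomal proteases and lipases on the higher side included Ctsl, at 696 CPM in the control and 818 to 856 in the exposed libraries, and Lipa, at 302 and 327 to 381. Of 29 measured genes of peroxisomes and fatty acid oxidation 12 were higher (41.4%) and 3 lower (10.3%). Their median log2 fold was 0.07, and Cat was the strict member. Cpt1a, which admits fatty acids to mitochondria, was at 9.58 CPM in the control and 12.1 to 15.9 in the exposed libraries.

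The 10 strict higher members farthest from the control were taken with predicted and identifier-only gene names left out. All of them but Gsta3 and Mgst2 lie outside the detoxification pathways. Serpinb9b, a serine protease inhibitor of the granzyme-inhibitor family, was at 12.1 CPM in the control, against 21.3 (UPM), 25.9 (TZ 1.25), 23.4 (TZ 2.5) and 22.8 (TZ 5). Tmem37 was at 11.6 CPM in the control, against 28.1 (UPM), 19.5 (TZ 1.25), 19.8 (TZ 2.5) and 24.8 (TZ 5). Coq2, an enzyme of coenzyme Q synthesis, was at 7.72 CPM in the control, against 13.9 (UPM), 13.3 (TZ 1.25), 14.6 (TZ 2.5) and 13.6 (TZ 5). The remaining members of these 10 were Vwf, whose values follow, and Pag1, an adaptor of Src-family kinase signalling, Gng4, a G-protein subunit, Tmsb10, an actin-binding thymosin, and Mis18a, a centromere factor, the last 4 each between 1.61-fold and 2.34-fold. The row 0610009B22Rik, left out by its name, was at 10.2 CPM in the control and 16.7 to 21.6 in the exposed libraries.

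Other strict higher members take part in immune signalling, lipid mediators and cell death. Ptgs1, the constitutive cyclooxygenase that makes prostaglandin precursors, was at 34.6 CPM in the control, against 51.6 (UPM), 44.6 (TZ 1.25), 57.6 (TZ 2.5) and 61.1 (TZ 5). Il2rg, the common gamma chain of several interleukin receptors, was at 10.6 CPM in the control and 16.2 to 17.5 in the exposed libraries. Mlkl, the effector of necroptosis, was at 18.6 CPM in the control and 25.1 to 26.6 in the exposed libraries. The exposed values of Il2rg and Mlkl lay close together, while those of Ptgs1 spread from 1.29-fold to 1.76-fold. Hpse, heparanase, was at 18.5 CPM in the control and 27.1 to 35.4 in the exposed libraries, and Decr2, a peroxisomal reductase of unsaturated fatty acids, was at 18.9 and 23.8 to 29.3.

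Vwf, von Willebrand factor, is a marker of endothelial cells. It was at 15.4 CPM in the control, against 29.4 (UPM), 28.4 (TZ 1.25), 27.4 (TZ 2.5) and 26.5 (TZ 5). Of the 6 endothelial markers 2 were measured, Vwf and Flt1, and their summed level with the other 4 was 276 CPM in the control and 294 to 322 in the exposed libraries. The other 4 markers were low in every library, with 1 to 4 counts for Cdh5, 0 to 2 for Cldn5, 0 to 3 for Tek and 6 to 14 for Pecam1. In RNA from a whole culture, a different share of cells and a different RNA level per cell cannot be told apart.

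On the lower side, p53 target genes held 4 of the 50 strict members. Cdkn1a, which encodes the cell cycle inhibitor p21, was at 547 CPM in the control, against 394 (UPM), 320 (TZ 1.25), 267 (TZ 2.5) and 210 (TZ 5). The folds were 0.721, 0.586, 0.489 and 0.385, and the counting intervals of the 4 exposed libraries, from 0.687 to 0.756 in UPM down to 0.362 to 0.409 in TZ 5, did not overlap each other. Bbc3, the pro-apoptotic protein PUMA, was at 76.5 CPM in the control, against 53.7 (UPM), 48.9 (TZ 1.25), 38.0 (TZ 2.5) and 33.8 (TZ 5). Both genes were lower at each TZ dose than at the dose below it.

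Bax and Phlda3 were lower without that order. Bax, which permeabilises the outer mitochondrial membrane, was at 49.6 CPM in the control, against 32.9 (UPM), 37.7 (TZ 1.25), 38.1 (TZ 2.5) and 32.1 (TZ 5). Phlda3, an inhibitor of Akt, was at 61.8 CPM in the control, against 44.7 (UPM), 48.9 (TZ 1.25), 41.1 (TZ 2.5) and 38.9 (TZ 5). Of 13 measured p53 targets 9 were lower in all 4 exposed libraries (69.2%) and none was higher, with a median log2 fold of -0.28. By library, the list's median log2 fold was -0.14 (UPM), -0.29 (TZ 1.25), -0.33 (TZ 2.5) and -0.38 (TZ 5), so UPM lay nearest the control. The other 5 on the lower side were Mdm2, Ccng1, Zmat3, Btg2 and Plk2. Trp53 itself was at 56.4 CPM in the control and 46.0 to 68.5 in the exposed libraries, on both sides.

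Interferon response genes contributed Isg15 and Bst2. Isg15, a ubiquitin-like antiviral protein, was at 78.7 CPM in the control, against 40.3 (UPM), 49.1 (TZ 1.25), 49.7 (TZ 2.5) and 54.1 (TZ 5). Bst2, tetherin, which holds budding virions at the cell surface, was at 71.2 CPM in the control, against 40.6 (UPM), 51.0 (TZ 1.25), 45.8 (TZ 2.5) and 41.8 (TZ 5). Both had their lowest exposed value in UPM, and all 8 folds lay between 0.512 and 0.716.

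The rest of the interferon list was less uniform. Of 38 measured genes 14 were lower in all 4 exposed libraries (36.8%), none was higher and 24 had exposed libraries on both sides, with a median log2 fold of -0.15. Ifit1, an antiviral RNA-binding protein, was on both sides, at 12.2 CPM in the control, against 14.9 (UPM), 11.8 (TZ 1.25), 14.7 (TZ 2.5) and 23.1 (TZ 5). Irf9, a subunit of the interferon-activated transcription factor, was at 50.4 CPM in the control and 31.8 to 40.7 in the exposed libraries. Library by library, the median log2 fold of the list was -0.04 (UPM), -0.15 (TZ 1.25), -0.21 (TZ 2.5) and -0.17 (TZ 5).

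The integrated stress response list held 1 strict lower member, Ddit3. This gene, which encodes the transcription factor CHOP, was at 98.6 CPM in the control, against 53.6 (UPM), 74.8 (TZ 1.25), 75.6 (TZ 2.5) and 65.3 (TZ 5). Trib3, a CHOP target, was at 47.4 CPM in the control, against 26.3 (UPM), 45.5 (TZ 1.25), 33.9 (TZ 2.5) and 32.9 (TZ 5), and missed the strict limit in TZ 1.25. Of 28 measured genes of the integrated stress response 14 were lower in all 4 (50.0%) and 2, Phgdh and Slc7a11, were higher, with a median log2 fold of -0.15. Asns, asparagine synthetase and a standard target of the pathway, was on both sides of the control, at 67.0 CPM there and 59.2 to 75.6 in the exposed libraries. Of 19 measured tRNA synthetases 10 were lower (52.6%) and 1 higher (5.26%). Of 13 immediate-early genes 8 were lower (61.5%) and 1 higher (7.69%). Over all measured genes 21.8% were lower and 20.0% higher.

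Inflammatory mediators gave 1 strict member, Nos2, the inducible nitric oxide synthase. It was at 17.8 CPM in the control, against 11.8 (UPM), 12.2 (TZ 1.25), 11 (TZ 2.5) and 9.57 (TZ 5), or 0.537-fold to 0.684-fold. Tnf, the cytokine TNF, was at 74.9 CPM in the control, against 70.2 (UPM), 75.1 (TZ 1.25), 81.1 (TZ 2.5) and 81.2 (TZ 5), and Ccl2, a monocyte attractant, was likewise on both sides. Of 14 measured cytokines, chemokines and related effectors 6 were lower in all 4 (42.9%) and 2, Ccl3 and Spp1, were higher (14.3%). Over all measured genes 21.8% were lower and 20.0% higher. The list's median log2 fold was -0.09. Il1b had 21 to 31 counts and Il6 1 to 12, under the CPM minimum. Cyp1a1 and Cyp1b1, targets of the aryl hydrocarbon receptor that respond to polycyclic aromatic compounds, had 0 counts in all 5 libraries, and each 0 allows up to 0.439 CPM.

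Spi1, which encodes PU.1, the transcription factor that sets myeloid identity, was a strict lower member at high depth. It was at 1017 CPM in the control, against 666 (UPM), 782 (TZ 1.25), 803 (TZ 2.5) and 623 (TZ 5). It was the strict member among the 12 measured microglia and macrophage markers, of which 3 were higher, 2 lower and 7 on both sides. UPM and TZ 5 were the lower pair of exposed libraries for Spi1, and TZ 1.25 and TZ 2.5 the higher pair.

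Zfp428, a zinc finger gene, had the fold farthest from 1 by its nearest library, at 40.6 CPM in the control, against 24.3 (UPM), 26.3 (TZ 1.25), 26.3 (TZ 2.5) and 23.9 (TZ 5). Its 4 folds lay between 0.589 and 0.649. Ap2s1, a subunit of the AP2 adaptor of clathrin-coated pits, had 1 exposed library apart from the other 3, at 73.6 CPM in the control, against 55.7 (UPM), 53.9 (TZ 1.25), 21.7 (TZ 2.5) and 47.7 (TZ 5). Another AP2 subunit, Ap2a2, was also a strict lower member, at 65.9 CPM in the control and 43.9 to 52.5 in the exposed libraries. Pseudogene rows such as Atp6v0c-ps2, with 66.0 CPM in the control and 33.7 to 49.6 in the exposed libraries, share sequence with their parent genes and are uncertain.

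Further strict lower members had other roles. Bc1, a noncoding RNA that represses translation in neurons, was at 58.7 CPM in the control, against 42.0 (UPM), 25.2 (TZ 1.25), 37.5 (TZ 2.5) and 37.3 (TZ 5), with TZ 1.25 apart from the others. Esrra, a nuclear receptor that drives mitochondrial genes, was at 28.0 CPM in the control and 16.9 to 20.9 in the exposed libraries. Slc12a7, a potassium-chloride cotransporter, was at 75.1 CPM in the control and 51.1 to 56.7 in the exposed libraries. Pvr, the poliovirus receptor homologue and a ligand of lymphocyte receptors, was at 38.5 CPM in the control and 26.1 to 30.2 in the exposed libraries. For these 4 genes every exposed library lay below the control with a 95% counting interval that excluded 1.

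The next 3 lists, of microglial function, held no strict member. Of 23 measured genes of disease-associated microglia 9 were higher in all 4 exposed libraries (39.1%) and 2 lower (8.70%), with a median log2 fold of 0.11. Clec7a, a receptor for fungal glucans on this list, was at 22.4 CPM in the control and 23.9 to 35.5 in the exposed libraries. Of 26 measured genes of phagocytosis and scavenging 10 were higher (38.5%) and 5 lower (19.2%). The complement gene C1qa was on the lower side, at 74.3 CPM in the control and 54.3 to 70.2 in the exposed libraries. Of 21 measured genes of Toll-like receptors and the inflammasome 8 were higher (38.1%) and 4 lower (19.0%). Over all measured genes 20.0% were higher and 21.8% lower. The lower shares of the phagocytosis and Toll-like receptor lists lay near that of all genes.

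Housekeeping lists also lacked strict members. Of 14 measured genes of the TRiC chaperonin, which folds actin and tubulin, and its partner prefoldin, 8 were lower in all 4 and 2 higher, with a median log2 fold of -0.15. Cct7 of this complex was at 492 CPM in the control, against 334 (UPM), 396 (TZ 1.25), 424 (TZ 2.5) and 437 (TZ 5), so UPM was farthest from the control. Of 77 measured cytosolic ribosomal proteins 19 were higher (24.7%) and 4 lower (5.19%). Of 69 nuclear genes of oxidative phosphorylation 21 were higher (30.4%) and 7 lower (10.1%). DNA replication, with 7 higher and 10 lower of 40, and mitosis, with 4 higher and 7 lower of 30, lay near the shares over all genes. Cholesterol synthesis had 4 lower (20.0%) and none higher of 20, beside 21.8% lower and 20.0% higher over all measured genes.

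**Figure D3:**
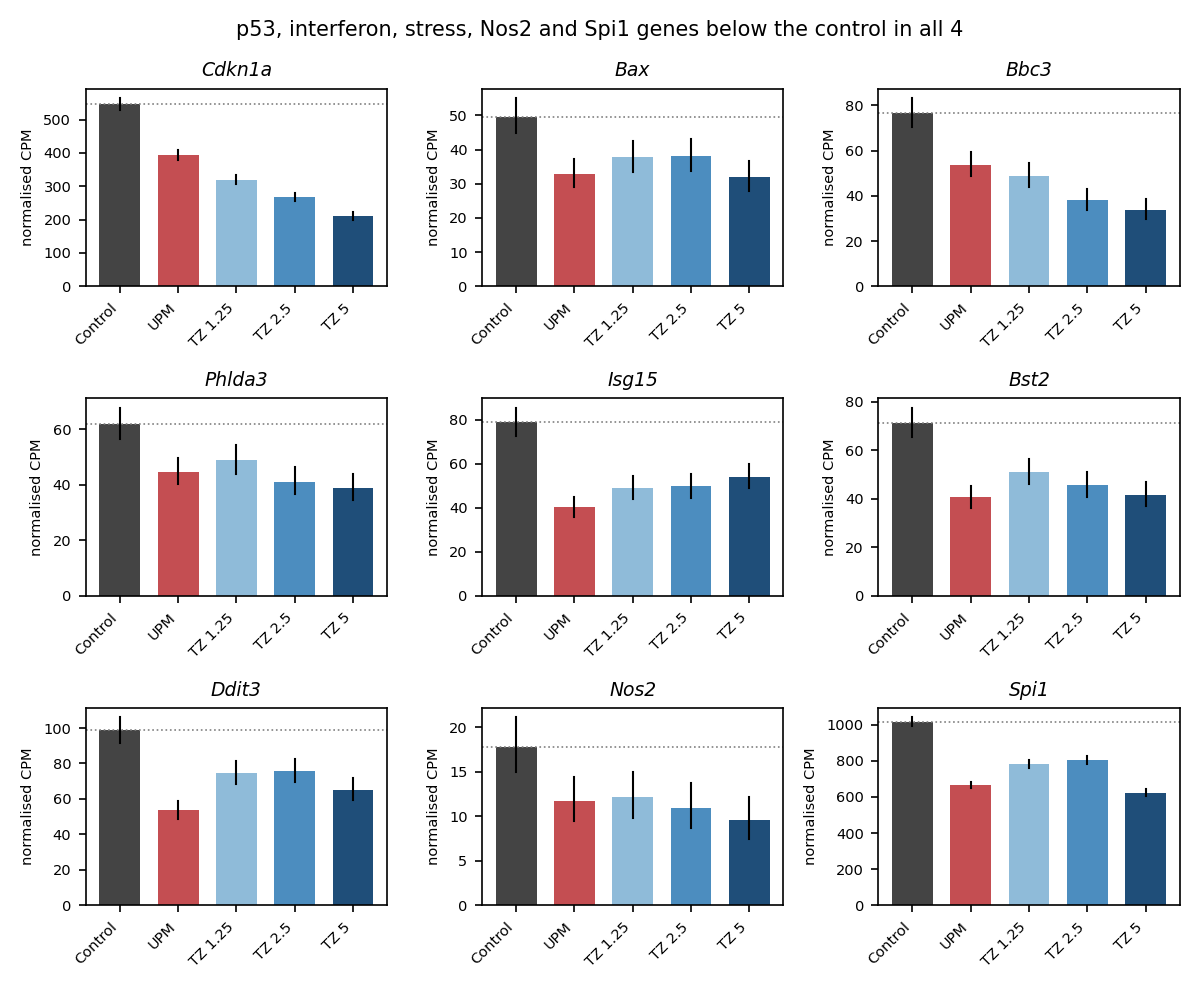
Normalised CPM in each of the 5 libraries for 9 lower members from the p53, interferon, stress, inflammatory and myeloid genes. Bars are single libraries with 95% counting intervals and the dotted line is the control; Cdkn1a steps down from 547 in the control to 210 in TZ 5, while Isg15 is lowest in UPM at 40.3.

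**Figure D4:**
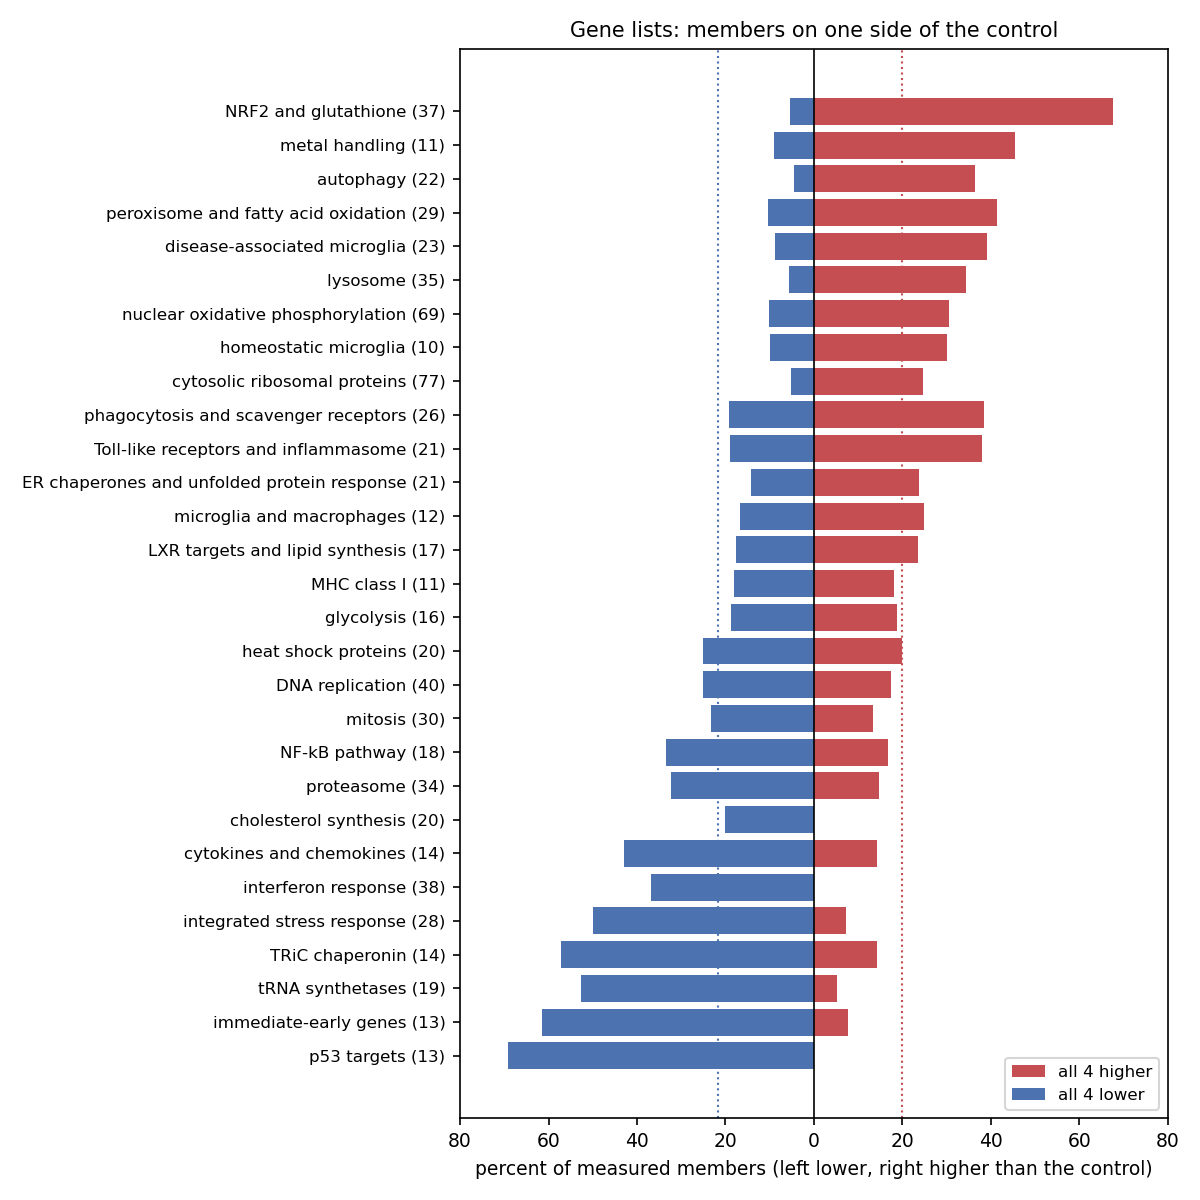
Share of the measured members of each of 29 gene lists that were higher (right, red) or lower (left, blue) than the control in all 4 exposed libraries, with the number measured in parentheses. Dotted lines mark the shares over all 8341 genes, 20.0% higher and 21.8% lower. The NRF2 and glutathione list (67.6% higher) and the p53 targets (69.2% lower) lie at the ends. The lists were chosen with earlier results of these data known.

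The higher and lower members differed in other properties. Of the strict higher members 93 of 94 were protein coding by RefSeq type, and of the strict lower members 42 of 50 (84.0%), beside 96.2% of all measured genes. The lower members that were not protein coding were 4 long noncoding RNAs, 3 pseudogenes of which 2 are transcribed, and 1 transfer RNA. Median transcript GC content was 48.6% for the higher members, 54.8% for the lower members and 49.1% for all measured genes, and median transcript length was 2994, 2108 and 3458 bases. The part of GC content and transcript length in the folds was not tested. The median of the mean levels was 23.9 CPM for the higher and 28.4 CPM for the lower members, beside 45.2 CPM for all measured genes. For 18 of the 94 higher members the control was under 10 CPM, so the exposed libraries carried them over the expression minimum.

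The range of log2 values among the 4 exposed libraries had a median of 0.27 for the higher members and 0.31 for the lower members, beside 0.32 over all measured genes. The median log2 fold of the higher members was 0.58 (UPM), 0.56 (TZ 1.25), 0.61 (TZ 2.5) and 0.62 (TZ 5). The corresponding values for the lower members were -0.49, -0.45, -0.53 and -0.63. TZ 5 was the library farthest from the control for 33 of the 94 higher members and the nearest for 22, while UPM was farthest for 21 and nearest for 33. Among the 50 lower members TZ 5 was farthest for 23 and nearest for 3, and UPM was farthest for 12 and nearest for 15.

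A test over all genes set the 4 exposed libraries as 1 class against the control. edgeR's quasi-likelihood test with Benjamini-Hochberg adjustment called 1 of 12381 genes (0.00808%), Gsta3, with a log2 difference of 2.26 (SE 0.30) and an adjusted p of 0.0254, higher in 4 of 4 exposed libraries. The spread here comes from the exposed libraries, which differ in TZ dose, and the fit takes the single control to vary as they do. The call was lost without TZ 1.25 (adjusted p = 0.117) and without TZ 2.5 (adjusted p = 0.0574). DESeq2 also called Gsta3 alone, at an adjusted p of 3.96e-07. Unadjusted p-values under 0.05 numbered 687, or 5.55% of genes tested. Among the strict members 93 of 94 higher and 49 of 50 lower genes had an unadjusted p under 0.05, which follows from a rule that used the same contrast.

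With a linear term for TZ dose, which takes dose differences out of the spread, edgeR called 21 of 12381 genes (0.17%), 15 higher and 6 lower, at a Benjamini-Hochberg adjusted p under 0.05. Of these 15 were strict members; the rule used the same contrast, so neither this count nor the values that follow are support for the members. The estimate is then the difference from the control at a TZ dose of 0, so it leans on the UPM library. By role, the called members were the glutathione and antioxidant genes Gsta3 (log2 2.0, SE 0.27, adjusted p = 2.32e-06), Cat (0.69, SE 0.14, adjusted p = 0.0172), Gclm (0.65, SE 0.14, adjusted p = 0.0203), Esd (0.57, SE 0.11, adjusted p = 0.00552) and Blvrb (0.56, SE 0.13, adjusted p = 0.0305). Mt1 (0.48, SE 0.10, adjusted p = 0.0207), Cyb5a, Esyt1, Vwf, Creg1 and Tmem37 were the other higher members. Isg15 (-0.87, SE 0.15, adjusted p = 0.00113), Ddit3 (-0.62, SE 0.15, adjusted p = 0.0461) and Cdkn1a (-0.52, SE 0.10, adjusted p = 0.00578) were among the lower members. Both fits assume that the single control varies like the exposed libraries, and the second has 2 residual degrees of freedom beside 63.5 borrowed across genes.

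The slope over TZ dose within the 4 exposed libraries does not use the control, although the same 4 libraries had to lie past 1.25-fold for membership. edgeR's test with Benjamini-Hochberg adjustment called 349 of 12381 genes as rising with dose (2.82%) and 317 as falling (2.56%). Of the 94 higher members 2 rose with dose (2.13%) and none fell, and 7 had an unadjusted p under 0.05 in either direction. Of the 50 lower members 2 fell (4.0%) and none rose, again with 7 at an unadjusted p under 0.05. Over the 8341 measured genes the shares were 4.14% rising and 3.56% falling. DESeq2 called none of the higher members and both of the falling lower members. It gave no adjusted p for members at low levels such as Gsta3, Mgst1 and Bax, which therefore could not be called.

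The 2 rising members were Ptgr1 and Tuba1a. Ptgr1, a reductase of prostaglandins and reactive alkenals, was at 22.8 CPM in the control, against 29.3 (UPM), 35.2 (TZ 1.25), 40.6 (TZ 2.5) and 47.1 (TZ 5), with a slope of 0.13 log2 per µg/mL (SE 0.04, edgeR adjusted p = 0.0211). Tuba1a, an alpha tubulin with close paralogs, was at 19.3 CPM in the control, against 25.2 (UPM), 26.7 (TZ 1.25), 42.0 (TZ 2.5) and 41.3 (TZ 5), with a slope of 0.15 (SE 0.04, edgeR adjusted p = 0.0143). The falling members were Cdkn1a, with a slope of -0.18 (SE 0.02, edgeR adjusted p = 2.32e-07), and Bbc3, with a slope of -0.14 (SE 0.04, edgeR adjusted p = 0.00965). In all 4 genes the slope pointed away from the control. The membership rule favours this direction, since a gene returning toward the control with dose could fall short of 1.25-fold. Cdkn1a was called under each alternative, whereas Bbc3 was not called without UPM (adjusted p = 0.146) or without TZ 5 (adjusted p = 0.136). For Gsta3 the slope was 0.12 (SE 0.04, adjusted p = 0.0879) and did not pass.

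**Figure D5:**
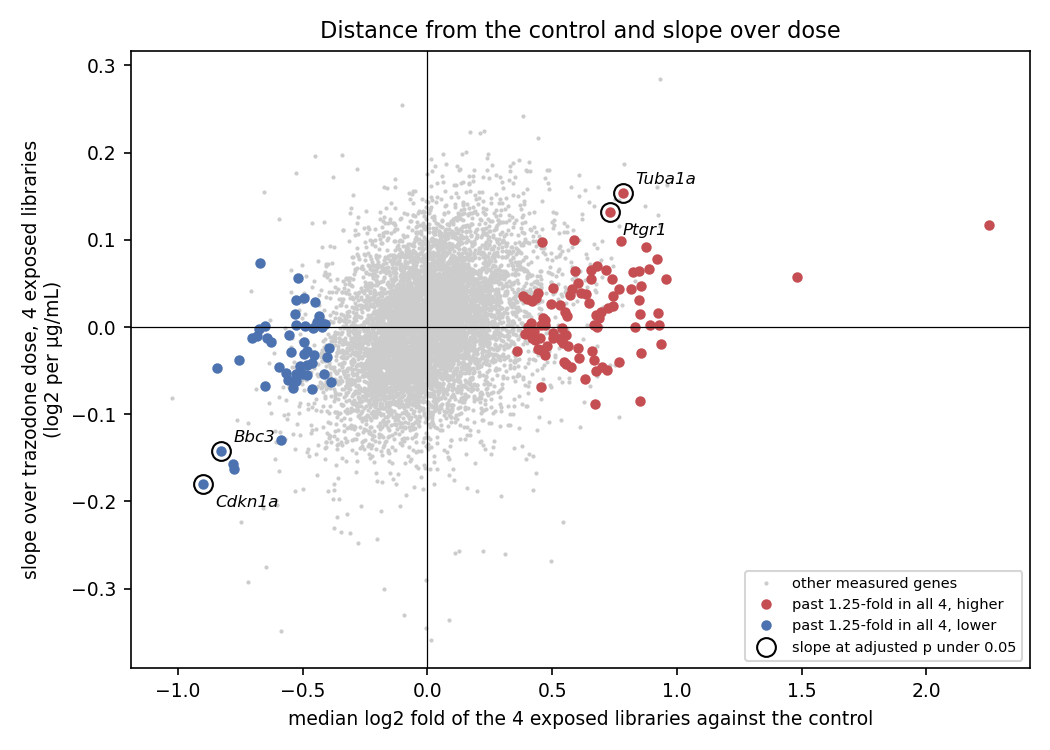
Median log2 fold of the 4 exposed libraries against the control (x axis) and edgeR slope over TZ dose among the exposed libraries in log2 per µg/mL (y axis) for the 8341 measured genes. Red and blue points are the 94 higher and 50 lower strict members. The 4 circled members with a called slope, Ptgr1, Tuba1a, Bbc3 and Cdkn1a, have slopes that point away from the control. The membership rule favours that direction.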

How the data were processed

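Messenger RNA ends were sequenced from 5 BV-2 libraries with the QuantSeq 3′ kit (single-end, 75 bp), per the labels' protocols. Raw counts were deposited by the authors, 1 file for each of 5 libraries with 40879 gene symbols and totals that differ. STAR, edgeR and GRCm39 are named without versions or roles in the submitters' processing notes; how reads were counted, and with which annotation and strand setting, is not stated there, so paralogs, pseudogenes and overlapping genes are less certain.

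Counts were scaled with TMM factors (0.991 to 1.01) from edgeR 4.0.16 (R 4.3.3, limma 3.58.1) to normalised CPM. Folds have 95% exact conditional binomial (Clopper-Pearson) intervals, which cover counting error only, since reads carry no molecular identifiers; the limit for a 0 is 3 counts. Fits used filterByExpr and glmQLFTest with an adjusted p under 0.05, and DESeq2 1.42.0 as an alternative. They were tested on simulated data. Alternatives were other scalings, thinning, other CPM and fold limits, no filter, a dose term, dose ranks, and each exposed library left out.

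Genes were named by rule: the 10 higher and 10 lower strict members farthest from the control (predicted and identifier-only gene names left out), genes called by edgeR, a fixed set of stress and inflammation genes, and, from each gene list, the 3 members farthest from the control in each direction. Other members were named after their values were seen, and a few genes are not reported here. The members and the 36 lists were chosen with earlier results of these data known. Of 931 list names 928 were found, 30 through a synonym; 29 lists had at least 5 measured genes. Promoters and gene types came from RefSeq, and transcript GC content from GENCODE, matched by symbol. RefSeq promoters were found for 6665 of the 8341 measured genes and transcripts for 97.9%.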

Additional observations from a re-analysis of the deposited data

How the results depend on the processing

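No paired analysis was possible because each group has 1 library. Without 1 exposed library, 3 folds had to pass in place of 4, and strict members numbered 116 to 176 higher and 61 to 123 lower; genes on one side numbered 1894 to 2246 higher and 2059 to 2500 lower. The strict counts were largest without UPM, at 176 higher and 123 lower, and 154 higher and 109 lower without TZ 1.25. A mean CPM of at least 1 left 2564 genes higher in all 4, and a mean of at least 30 left 958, with 30 strict higher and 24 strict lower members. Strict members numbered 20 higher and 1 lower at 1.5-fold, 2 and 0 at 2-fold, and 142 higher by size alone, without the interval. With DESeq2 size factors there were 89 higher and 51 lower strict members (139 shared with the 144), with library totals 103 and 39 (133 shared), and with thinned libraries 89 and 49 (118 shared). The edgeR exposed-against-control calls numbered 21 with a dose term, 27 without the low-count filter and 0 to 2 with 1 exposed library left out. The 0 arose without TZ 1.25, where 666 genes had an unadjusted p under 0.05, and without TZ 2.5, where 479 did; DESeq2 on all 5 libraries called 1. Dose slopes numbered 666 by edgeR, 371 by DESeq2, and 204 to 577 with 1 exposed library left out, the fewest without UPM and 367 without TZ 5; the cause was not tested. Of 1302 values of 186 named genes under 7 alternatives, 1270 stayed within counting error of the main value and 32 moved. A change of direction was looked for only in strict members, and none was found. Leaving out a library could not have reversed them, since all 4 folds of a member share a direction. Depth limits low genes: Mgst2 rests on 35 counts in the control, and its counting interval in UPM ran from 1.41 to 3.28.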

Other observations

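Some genes stood clear of the control in UPM but crossed it in a library with TZ. Of 269 measured genes at least 1.5-fold from the control in UPM with the interval excluding 1, 73 had exposed libraries on both sides of the control. Over all 8341 measured genes, 20.0% were higher in all 4 and 21.8% lower. The rest of the measured genes had exposed libraries on both sides, a larger share than among the 269. Nt5c3b, a nucleotidase, was at 13.8 CPM in the control, against 6.93 (UPM), 9.84 (TZ 1.25), 16.9 (TZ 2.5) and 17.4 (TZ 5). Scd1, the stearoyl-CoA desaturase, was at 12.6 CPM in the control, against 21.3 (UPM), 11.6 (TZ 1.25), 13.9 (TZ 2.5) and 13.8 (TZ 5). Mybl1, a transcription factor, was at 9.18 CPM in the control, against 18.8 (UPM), 11.5 (TZ 1.25), 11.3 (TZ 2.5) and 7.25 (TZ 5). The crossing was not tested. These 3 genes were chosen after their values were seen.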
